A study of Homo sapiens with 6 samples.

Results

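The insulin-like growth factor (IGF) axis was examined in AN3CA cells, an established human endometrial cancer line that expresses *PAX2*, with and without *PAX2* knockdown (KD). Its 10 members were chosen by symbol, though with earlier results of these data known. They were the ligand *IGF2*, the receptors *IGF1R* and *INSR*, the adaptors *IRS1* and *IRS2*, and the binding proteins *IGFBP2*, *IGFBP3*, *IGFBP4*, *IGFBP5* and *IGFBP6*. Of the 17471 genes in the expression table, 9 were members. The RNA of *IRS2* was not analysed here. Of the 9, 5 (*INSR*, *IRS1*, *IGFBP2*, *IGFBP3* and *IGFBP6*) reached 0.5 TPM (transcripts scaled to a fixed library total, a level per transcript length) in at least 3 libraries, as did 13163 genes in all, and were tested. The other 4 stayed under this minimum.

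RNA-Seq was done on 6 libraries. All cells were AN3CA transduced with a lentiviral hairpin vector and selected with puromycin, 3 libraries with the empty vector (shEV) and 3 with a vector carrying 1 hairpin against *PAX2* (shPAX2). Elsewhere the study names a scrambled hairpin as the control of this line. No single clone is named for either group, and the KD rested on 1 hairpin. The labels do not say that replicates came from separate cultures, so p-values measure only the spread between these libraries, which may be technical. The total of reads recovered from the TPM values was 10730909 to 18221859 in shEV and 19422615 to 29405787 in shPAX2. The shPAX2 replicate 1 stood apart from its group: its reads differed from those of replicates 2 and 3 with a chi-square per degree of freedom of 12 and 14.9, against 3.72 between replicates 2 and 3 and 3.12 to 5.3 within shEV. Where leaving it out changed a call below, the result without it is given there.

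Insulin and the IGFs bind the receptor tyrosine kinases IGF1R and INSR, which phosphorylate the insulin receptor substrates IRS1 and IRS2. These dock PI3K, which activates AKT and the mTOR relay, while AKT keeps FOXO transcription factors out of the nucleus. The secreted IGF-binding proteins hold IGFs in the extracellular fluid and limit or extend their access to receptors. In the endometrium the axis is known for coupling hormone and insulin signals to epithelial growth, and PI3K signalling is often altered in endometrial cancer.

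*PAX2*, the targeted gene on chromosome 10, was checked first. It stood at 4.03, 3.66 and 2.74 TPM in shEV and at 0.916, 0.723 and 1.17 TPM in shPAX2. Every shPAX2 library was below every shEV library, and the mean was 26.9% of that in shEV. The log2 fold change on log2(TPM + 0.5), the scale of all fold changes below, was -1.47 (SE 0.18, limma adjusted p = 0.000294). Of 9 mesenchymal or stromal markers 5 reached 1 TPM, and the list summed to 4940 to 5350 TPM in shEV and 4210 to 4390 TPM in shPAX2, most of it VIM. COL1A2 was at 809 to 855 TPM in shEV and at 360 to 439 TPM in shPAX2. CDH2 and FN1 stayed at or under 0.0777 and 0.827 TPM, and DCN and LUM were not among the genes listed. Of 8 epithelial markers 1, KRT18, reached 1 TPM (10.2 to 12.9 TPM in shEV and 11.9 to 17.5 TPM in shPAX2), while CDH1 and EPCAM stayed at or under 0.0851 and 0.387 TPM, so defining epithelial markers were near 0 in both groups. Summed endothelial markers stayed at or under 0.0611 TPM. The leukocyte markers summed to 0.835 to 1.52 TPM in shEV and 1.58 to 2.28 TPM in shPAX2, nearly all of it CD68, with PTPRC at or under 0.0138 TPM. The part of these differences in the results was not tested.

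The sequences shown are the 250 bases before the transcription start of tested members. These were the 3 tested members that fell, *IRS1*, *IGFBP6* and *IGFBP2*, and *INSR*, the tested receptor, which did not pass the test. The sequences are from RefSeq on GRCh38.p14, 5′ to 3′ on the strand of the gene. Capitals mark each match to 4 motifs on either strand. The motifs were GCGTGAC, a core of the site bound by paired-domain factors such as PAX2, GTAAACA, the FOXO element, GGGCGG, the GC box, and TATAAA, the TATA box. The windows lie at chr2:226799821-226800070 (minus strand), chr12:53097417-53097666 (plus strand), chr2:216632578-216632827 (plus strand, the first of 3 windows listed) and chr19:7294415-7294664 (minus strand).
IRS1: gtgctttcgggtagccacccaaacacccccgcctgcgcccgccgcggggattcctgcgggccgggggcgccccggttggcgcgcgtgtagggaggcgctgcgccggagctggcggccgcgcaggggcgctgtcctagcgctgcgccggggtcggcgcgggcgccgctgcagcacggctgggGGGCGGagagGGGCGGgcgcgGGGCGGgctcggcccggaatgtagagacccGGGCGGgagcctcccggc
IGFBP6: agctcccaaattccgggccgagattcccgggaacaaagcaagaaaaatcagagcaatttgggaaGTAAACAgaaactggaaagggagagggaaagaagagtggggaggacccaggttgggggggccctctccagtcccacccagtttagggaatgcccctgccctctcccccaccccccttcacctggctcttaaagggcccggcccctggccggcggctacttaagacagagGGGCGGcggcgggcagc
IGFBP2: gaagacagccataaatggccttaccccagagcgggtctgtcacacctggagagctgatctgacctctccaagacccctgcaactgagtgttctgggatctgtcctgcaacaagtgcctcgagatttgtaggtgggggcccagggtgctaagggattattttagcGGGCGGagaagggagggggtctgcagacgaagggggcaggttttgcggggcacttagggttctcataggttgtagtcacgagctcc
INSR: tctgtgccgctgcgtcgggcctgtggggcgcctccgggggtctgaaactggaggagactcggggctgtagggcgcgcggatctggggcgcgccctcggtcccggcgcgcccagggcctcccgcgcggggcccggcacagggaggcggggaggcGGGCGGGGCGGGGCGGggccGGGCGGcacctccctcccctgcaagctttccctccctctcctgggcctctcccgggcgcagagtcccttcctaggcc

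The *IRS1* window held 4 GC boxes, as did that of *INSR*, where copies overlap each other. The *IGFBP6* window held 1 GTAAACA and 1 GC box, and the *IGFBP2* window held 1 GC box. Of 35116 RefSeq windows of the same length, 42.6% held a GC box, 2.98% the FOXO element, 10.7% the TATA box and 2.20% the paired-domain core. Windows were found for 9 members, *IRS2* among them and *IGF2* not. None of these held the paired-domain core, which says only that these letters are not in those 250 bases. GC content was 80.8% for *IRS1* and 78.4% for *INSR*, against 61.2% for *IGFBP6*, 56.8% for *IGFBP2* and a median of 58.0% over all windows. The adaptor that fell and the receptor that did not pass the test thus had windows alike in GC boxes and base composition.

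The main comparison asked how each member's RNA differed between shPAX2 and shEV. Among the tested members, the adaptor *IRS1* fell the most, and the binding proteins *IGFBP6* and *IGFBP2* fell. *INSR* had overlapping groups and did not pass the test, and *IGFBP3* was high in 2 of 3 shPAX2 libraries. Of the 5 tested members, 2 passed both criteria of a call (limma adjusted p below 0.05 and a log2 change of 1 or more in size), and both were lower. Over all genes tested, 4.54% passed (3.11% lower and 1.43% higher). With adjusted p alone, 3 of 5 passed, all lower, against 42.8% of all genes (30.5% lower and 12.2% higher). Those same 3 members had groups that did not overlap, as did 54.9% of all genes tested (39.0% lower and 15.9% higher). Against shares this large, nothing is read from the 3 of 5 members by the last 2 rules. Without shPAX2 replicate 1, *IGFBP3* passed as higher, so 3 of 5 members passed both criteria and 4 passed on adjusted p. Over all genes, 610 of 13017 then passed both criteria and 5658 passed on adjusted p. In bulk RNA, fewer cells that express a gene and less RNA per cell cannot be told apart. The median log2 fold change was -0.79 over the 5 tested members and -0.10 over all genes.

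**Figure D1:**
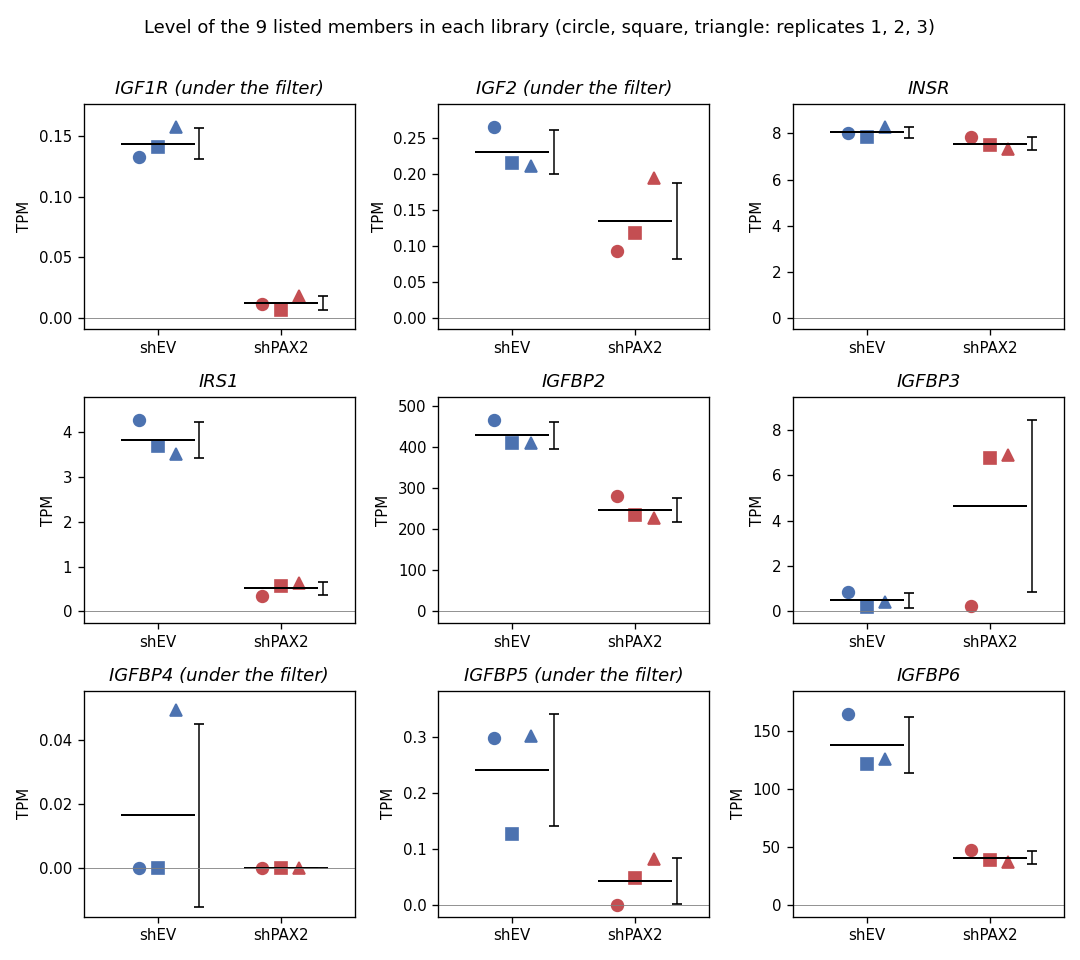
TPM of the 9 listed members in each library, with circles, squares and triangles for replicates 1, 2 and 3, horizontal lines for group means and bars for ± 1 SD (n = 3); each panel has its own axis. *IRS1* and *IGFBP6* show 2 separate groups, *INSR* overlaps, and *IGFBP3* splits the shPAX2 group into 1 low library (0.248 TPM) and 2 high ones (6.74 and 6.89 TPM).

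Ligand RNA was scarce. *IGF2*, the fetal growth factor that signals through IGF1R and INSR, lies at chr11:2150342-2179621 (GRCh37, minus strand), and it stood at 0.266, 0.215 and 0.211 TPM in shEV and at 0.0933, 0.118 and 0.195 TPM in shPAX2. These values rest on 9 to 12 reads a library, 33 in shEV and 31 in shPAX2. Relative to depth the pooled shEV level was 1.77 times that of shPAX2 (95% interval 1.05 to 2.98, for counting error only, since reads are not independent molecules). *IGF2* and the readthrough gene *INS-IGF2* had the same read count in every library, so the 2 cannot be told apart. Without a filter the *IGF2* difference did not pass the test (log2 fold change -0.20, limma adjusted p = 0.113). *IGF1*, the other IGF ligand, had 1 read in all 6 libraries.

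*H19*, the noncoding RNA imprinted opposite to *IGF2* and next to it, was at 10.4, 10.8 and 10.5 TPM in shEV and at 10.8, 11.2 and 9.28 TPM in shPAX2. The groups overlapped. Its log2 fold change was -0.02 (SE 0.09, limma adjusted p = 0.867), and the sign turned with both other scalings. The 2 genes of this imprinted pair thus stood at very different levels per length in these cells.

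The receptors differed from each other. *INSR*, the insulin receptor gene at chr19:7112266-7294425 (GRCh37, minus strand), was at 8.04, 7.83 and 8.30 TPM in shEV and at 7.86, 7.48 and 7.31 TPM in shPAX2. The groups overlapped by 1 library. The means were 8.06 ± 0.235 and 7.55 ± 0.284 TPM (SD, n = 3), and the log2 fold change of -0.09 (95% interval -0.27 to 0.09) did not pass the test (limma adjusted p = 0.394). It was 0.02 with median-of-ratios scaling and 0.12 with quantile normalization, so no direction is given for *INSR*. The median of all genes moved from -0.10 to 0.0053 and 0.0008 under these 2 scalings, and *INSR* differed from the median of -0.10 by 0.01.

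*IGF1R*, which encodes the type 1 IGF receptor, lies at chr15:99191768-99507759 (GRCh37, plus strand) and was low throughout. It stood at 0.133, 0.141 and 0.158 TPM in shEV and at 0.0116, 0.0066 and 0.0182 TPM in shPAX2. These come from 8, 14 and 16 reads against 2, 1 and 2 reads. All shPAX2 libraries were below all shEV libraries, although each held fewer than 20 reads. Pooled and relative to depth, shEV was 12.6 times shPAX2 (95% interval 4.95 to 41.0, counting error only). As the gene was under the minimum, it entered a test only without the filter, where the log2 fold change of -0.33 (SE 0.05, limma adjusted p = 0.00512) is shrunk by the added 0.5 TPM.

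Within each library *INSR* outweighed *IGF1R* on the per-length scale. The TPM ratio of *INSR* to *IGF1R* was 60.7, 55.6 and 52.7 in shEV and 676, 1130 and 401 in shPAX2. All shPAX2 ratios were above all shEV ratios, and the shPAX2 ones rest on the 1 or 2 *IGF1R* reads of each library. No scaling between libraries enters these ratios.

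*IRS1*, which couples both receptors to PI3K, lies at chr2:227596028-227664536 (GRCh37, minus strand). It was at 4.26, 3.68 and 3.51 TPM in shEV and at 0.344, 0.560 and 0.633 TPM in shPAX2, from 200, 284 and 277 reads against 46, 66 and 54. The groups were far apart, with the lowest shEV library several times above the highest shPAX2 library. The mean fell from 3.82 ± 0.395 to 0.513 ± 0.151 TPM (SD, n = 3), which is 13.4% of shEV. The log2 fold change was -2.10 (SE 0.16, 95% interval -2.46 to -1.74, limma adjusted p = 2.33e-05), and 71 of the 13163 genes had a lower one (0.539%). An exact two-sided permutation test of the 3 against 3 TPM values gave p = 0.1, the smallest this design allows. The *IRS1* log2 fold change was further below 0 than that of *PAX2* itself, and *IRS1* passed both criteria in each setting in which it was tested, between -2.93 and -1.67.

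As *IRS1* fell and *INSR* did not pass the test, the TPM ratio of receptor to adaptor was wider in shPAX2. It was 1.89, 2.13 and 2.36 in shEV and 22.9, 13.3 and 11.5 in shPAX2. The 2 groups of ratios did not overlap. The 3 tested genes whose profile over the 6 libraries was nearest to that of *IRS1* were *SLC8A1* (root-mean-square difference 0.0906 in centred log2 values), *RAB17* (0.0952) and *GPR63* (0.0994). They encode a sodium-calcium exchanger, a Rab GTPase and an orphan receptor, and their log2 fold changes were -2.0, -2.18 and -2.22.

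**Figure D2:**
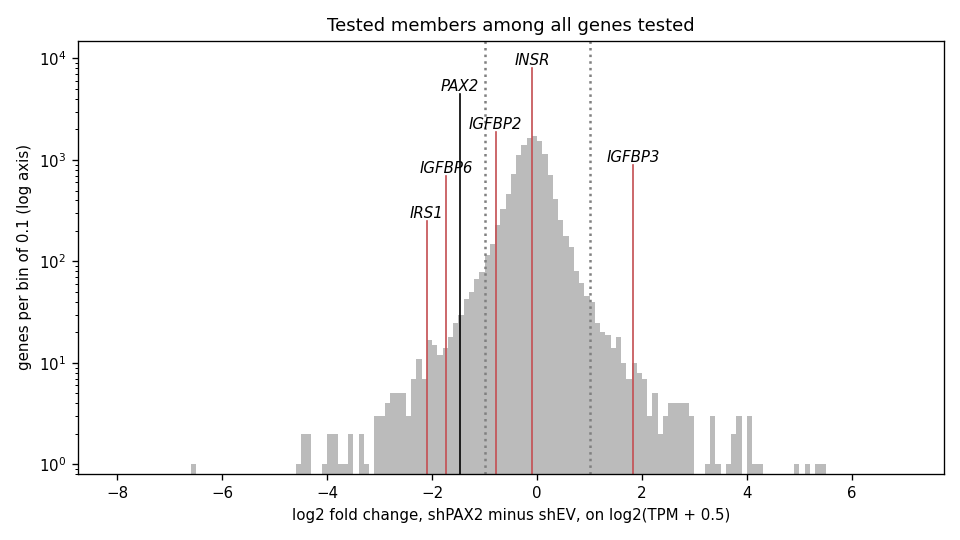
Histogram of log2 fold changes (shPAX2 minus shEV, on log2(TPM + 0.5)) over the 13163 genes tested, with the gene number per bin of 0.1 on a log axis, red lines for the 5 tested members, a black line for *PAX2* and dotted lines at -1 and 1. *IRS1* (-2.10) and *IGFBP6* (-1.73) lie beyond *PAX2* (-1.47) in the lower tail on this scale. *IGFBP2* lies at -0.79, *INSR* near the centre, and *IGFBP3* at 1.83 in the upper tail without passing the test. The order of *IGFBP6* and *PAX2* depends on the added 0.5 TPM. With 0.1 TPM added instead, *PAX2* (-1.79) lay beyond *IGFBP6* (-1.74), as it did with voom on recovered reads (-1.87 and -1.68).

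Among the binding proteins, *IGFBP2* and *IGFBP6* made up nearly all of the RNA. *IGFBP2*, whose product binds both IGFs and circulates at high level, lies at chr2:217497551-217529159 (GRCh37, plus strand) and was at 465, 409 and 410 TPM in shEV and at 280, 235 and 226 TPM in shPAX2. The groups did not overlap. The mean fell from 428 ± 32.2 to 247 ± 29.1 TPM (SD, n = 3), which is 57.8% of shEV. Its log2 fold change of -0.79 (SE 0.09, 95% interval -1.0 to -0.59, limma adjusted p = 0.000213) passed on p but not on size, and 5.43% of genes had a lower one.

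*IGFBP6*, whose product prefers IGF2 over IGF1, lies at chr12:53491220-53496129 (GRCh37, plus strand). It was at 165, 122 and 126 TPM in shEV and at 47.1, 38.6 and 37.3 TPM in shPAX2. Every shPAX2 library was below every shEV library by more than the range within either group. The mean fell from 138 ± 24.0 to 41.0 ± 5.34 TPM (SD, n = 3), which is 29.8% of shEV. The log2 fold change was -1.73 (SE 0.14, 95% interval -2.06 to -1.40, limma adjusted p = 0.000133), and 123 genes had a lower one (0.934%). It stayed between -1.83 and -1.59 in the other settings and passed both criteria in each.

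The balance between these binding proteins moved as *IGFBP6* fell further than *IGFBP2*. Their TPM ratio, *IGFBP2* to *IGFBP6*, was 2.81, 3.36 and 3.25 in shEV and 5.95, 6.09 and 6.06 in shPAX2. The summed TPM of the 5 binding protein members was 631, 531 and 536 in shEV and 328, 280 and 270 in shPAX2. *IGFBP2* made up 73.6%, 77.0% and 76.3% of that sum in shEV and 85.5%, 83.8% and 83.6% in shPAX2. All of these ratios, sums and shares were separate between the groups.

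*IGFBP3*, whose product is the main IGF carrier in serum, was the member with the widest spread. It lies at chr7:45951844-45961473 (GRCh37, minus strand) and was at 0.850, 0.215 and 0.421 TPM in shEV and at 0.248, 6.74 and 6.89 TPM in shPAX2. The reads were 12, 5 and 10 in shEV and 10, 239 and 177 in shPAX2. Replicate 1 of shPAX2 thus lay inside the shEV range, and the other 2 libraries stood 27.1 and 27.8 times above it. With all libraries the log2 fold change of 1.83 (SE 1.06, 95% interval -1.0 to 4.66) did not pass the test (limma adjusted p = 0.237), and an exact permutation test gave p = 0.3. Without shPAX2 replicate 1 the log2 fold change was 2.93 (SE 0.26, limma adjusted p = 0.000109). That fit rests on the other 2 shPAX2 libraries. Leaving out the only low library of the group widens the difference by itself, so nothing further is read from it.

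The low library was the one that stood apart in all its reads. There, 78 tested genes (0.593%) lay more than 1 log2 unit above or below both other shPAX2 libraries, and *IGFBP3* was among the 49 that lay below. The other 5 libraries had 58 to 132 such genes against the rest of their own group, so that number was not unusual. In the same library *IRS1*, *IGFBP2*, *IGFBP6* and *IGF1R* stayed on the side of the other shPAX2 libraries. The *IGFBP3* share of binding protein TPM was 0.135%, 0.0405% and 0.0785% in shEV and 0.0758%, 2.41% and 2.55% in shPAX2, so even at its highest it was a small part of the sum.

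*IGFBP5*, a binding protein often bound to extracellular matrix, lies at chr2:217536828-217560272 (GRCh37, minus strand), 7668 bases from the end of *IGFBP2*. It stood at 0.299, 0.127 and 0.302 TPM in shEV and at 0, 0.0476 and 0.0821 TPM in shPAX2, from 10, 7 and 17 reads against 0, 4 and 5. The groups did not overlap, on 34 reads against 9. The pooled shEV level relative to depth was 6.27 times that of shPAX2 (95% interval 2.94 to 14.9, counting error only). Without the filter its log2 fold change was -0.44 (SE 0.12, limma adjusted p = 0.0293). The abundant *IGFBP2* and its scarce neighbour were both lower in shPAX2. *IGFBP4* (chr17:38599702-38613977, GRCh37, plus strand) had 1 read, in shEV replicate 3, and no comparison was detectable at this depth.

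Ordered by level per length, shEV cells held *IGFBP2*, *IGFBP6*, *INSR*, *IRS1*, *IGFBP3*, *IGFBP5*, *IGF2*, *IGF1R* and *IGFBP4*. The ranges of *IGFBP3* and *IGFBP5*, and of *IGFBP5* and *IGF2*, overlapped, while all other neighbours in that order were separate. In shPAX2 the order was *IGFBP2*, *IGFBP6*, *INSR*, *IGFBP3*, *IRS1*, *IGF2*, *IGFBP5*, *IGF1R* and *IGFBP4*. There the ranges of *IGFBP3* and *IRS1*, and of *IGFBP5* and *IGF1R*, overlapped. The 3 most abundant members kept their places, and *IRS1* stood next to *INSR* in shEV only.

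**Figure D3:**
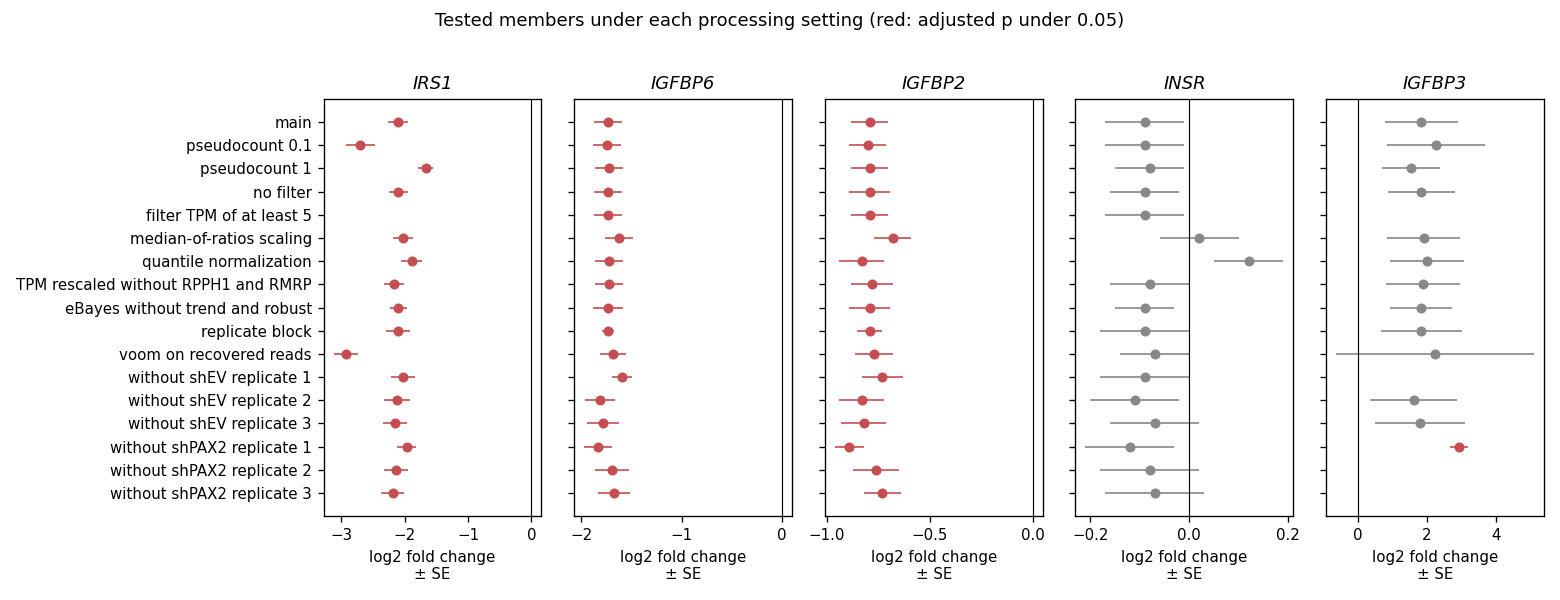
Log2 fold change (± SE) of the 5 tested members under each processing setting, 1 panel a gene with its own axis, red where the limma adjusted p was under 0.05; a missing point means that the gene was not tested in that setting. *IRS1*, *IGFBP6* and *IGFBP2* stay left of 0, *INSR* crosses 0, and *IGFBP3* turns red only without shPAX2 replicate 1, at 2.93.

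The rest of the pathway was read from a list of 72 other genes, of which 67 were in the table and 53 were tested. *GRB10* fell, *CITED2* rose, and most of the relay moved little. These were the 2 of 53 (3.77%) that passed both criteria, near the 4.54% of all genes, and the median log2 fold change of the list was -0.05. With adjusted p alone 23 passed (43.4%), 6 higher and 17 lower, near the 42.8% of all genes. That split depended on scaling: 19 passed with median-of-ratios scaling (9 higher and 10 lower) and 15 with quantile normalization (9 higher and 6 lower). Without shPAX2 replicate 1, *CCNG2* also passed both criteria, as lower, which made 3 of 53, and 21 passed on adjusted p.

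Among the tested list genes, the adaptors held the largest fall. *GRB10*, which binds the activated insulin and IGF receptors and restrains their signal, was at 12.7, 12.1 and 12.9 TPM in shEV and at 2.98, 3.09 and 2.97 TPM in shPAX2. The 2 groups were tight and far apart. The mean fell from 12.6 ± 0.399 to 3.02 ± 0.0668 TPM (SD, n = 3), a log2 fold change of -1.90 (SE 0.08, limma adjusted p = 8.31e-07). It passed both criteria in all 16 other settings. Of the 5 tested adaptors, *SH2B2*, an adaptor of the insulin receptor, fell as well (-0.46, limma adjusted p = 0.00761), though not with quantile normalization, and *SHC1*, *GRB2* and *SH2B1* did not pass. A positive coupler, *IRS1*, and a negative one, *GRB10*, were thus both lower.

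Of the other receptors and binding proteins, *IGF2R*, the receptor that takes IGF2 to lysosomes, rose. It was at 45.0, 43.6 and 43.5 TPM in shEV and at 63.6, 68.9 and 67.4 TPM in shPAX2, a log2 fold change of 0.59 (limma adjusted p = 7.74e-05). Its gene is on chromosome 6, where the median log2 fold change of 638 tested genes was 0.39, against -0.11 for 12034 genes on other chromosomes. All 5 tested list genes there (*IGF2R*, *CITED2*, *SESN1*, *SOD2* and *FOXO3*) had a median of 0.46. On adjusted p 3 of them passed, all higher, where 42.8% of all genes passed and 12.2% were higher. The part of this chromosome-wide difference in the values of these list genes was not tested. *IGFBPL1*, an IGFBP-like gene, gave -0.39 (limma adjusted p = 0.0467), and *HTRA1*, a protease of binding proteins, gave -0.78 (limma adjusted p = 0.0270). Neither call was stable. That of *IGFBPL1* was lost with both other scalings and without any 1 of the 6 libraries (limma adjusted p = 0.0944 without shPAX2 replicate 1). That of *HTRA1* was lost with quantile normalization (limma adjusted p = 0.119) and without shEV replicate 1 or 2 or shPAX2 replicate 1 or 3 (limma adjusted p = 0.0824 without shPAX2 replicate 1).

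**Figure D4:**
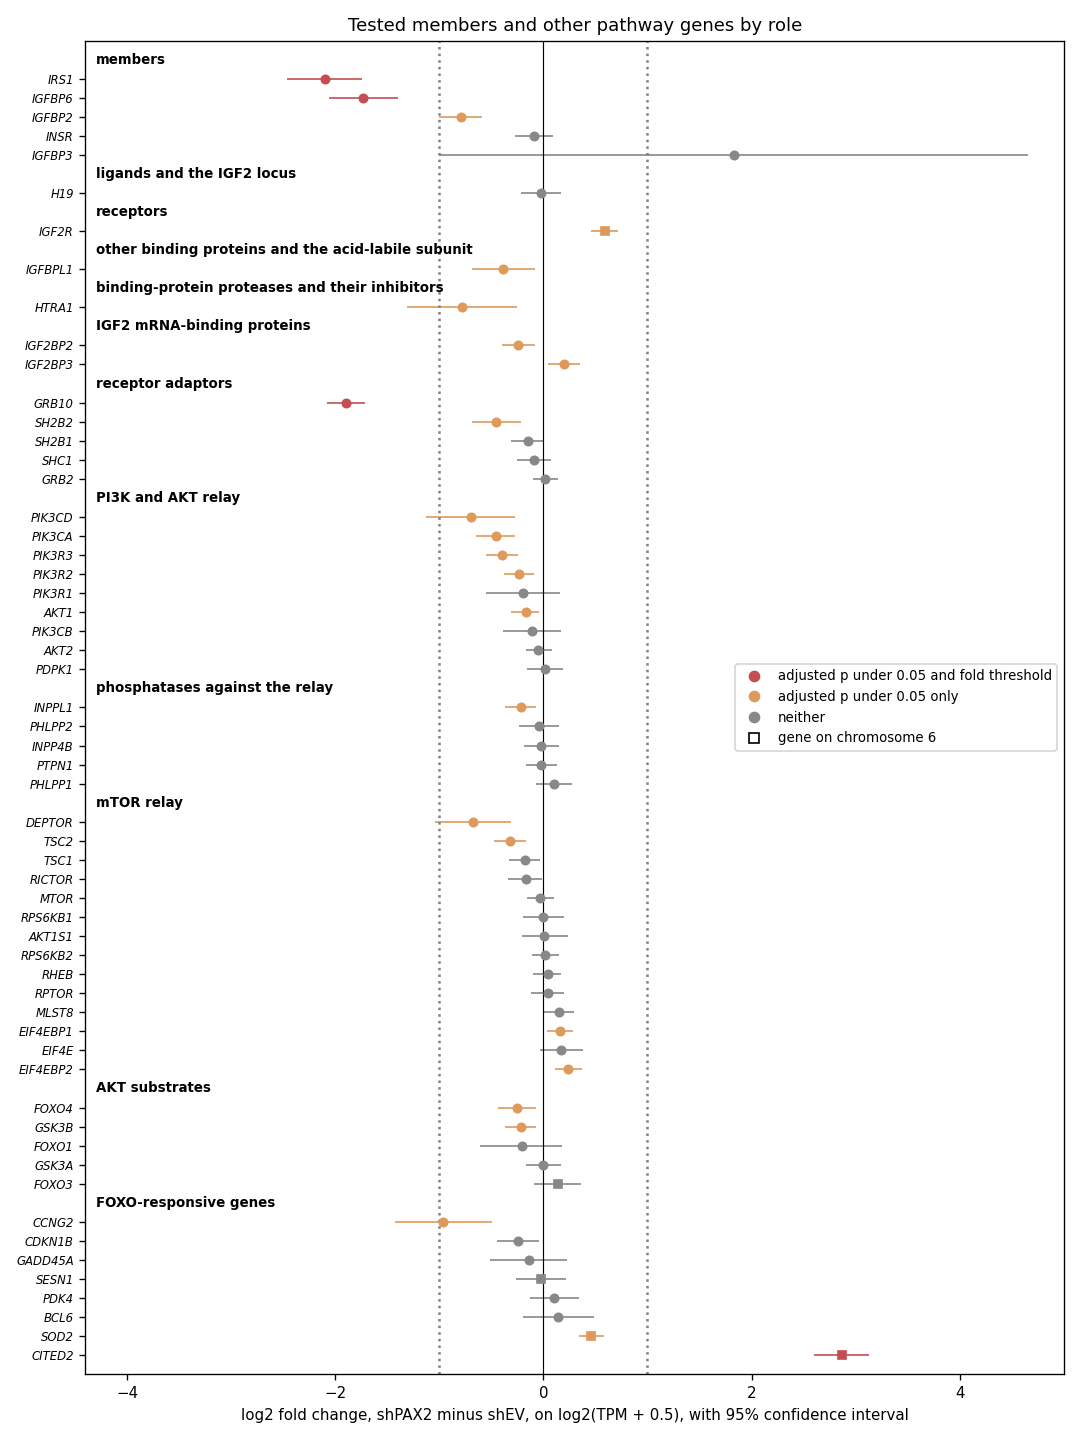
Log2 fold changes (points) with 95% confidence intervals (bars) on log2(TPM + 0.5) for the 5 tested members and 52 of the 53 tested list genes, grouped by role, with squares for genes on chromosome 6 and dotted lines at -1 and 1. *IRS1*, *IGFBP6* and *GRB10* lie left of -1, *CITED2* at 2.87 lies far right, and the PI3K, phosphatase and mTOR groups stay within 1 unit of 0.

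The PI3K and AKT relay held 9 tested genes, of which 5 were lower by adjusted p and none higher. They were *PIK3CA*, *PIK3CD*, *PIK3R2*, *PIK3R3* and *AKT1*. Over all genes tested, 42.8% passed on adjusted p (30.5% lower and 12.2% higher), so nothing is read from this count. The farthest from 0 was *PIK3CD*, a catalytic subunit of PI3K, at -0.70 (limma adjusted p = 0.0169), a call lost with quantile normalization (limma adjusted p = 0.0891) and without shEV replicate 1 or 3 or shPAX2 replicate 2. *PIK3CA* (-0.46) and *PIK3R3* (-0.40) were called lower under both other scalings too, where 3 and 2 of the 9 passed. The call of *AKT1* (-0.17, limma adjusted p = 0.0442) was kept in only 4 of the 16 other settings. Of the phosphatases that act against the relay, *INPPL1* was lower (-0.22, limma adjusted p = 0.0247), with this scaling only. Its call was kept in 2 of the 6 fits that left out 1 library. *PHLPP1* was called higher with both other scalings, though not with this one.

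In the mTOR relay 4 of 14 tested genes (28.6%) passed on adjusted p, against 42.8% of all genes. *DEPTOR*, an inhibitory partner of mTOR, was lower at -0.68 (limma adjusted p = 0.00898), as was *TSC2* (-0.32), a brake on the relay, while the translation inhibitors *EIF4EBP1* (0.16) and *EIF4EBP2* (0.24) were higher. With quantile normalization the calls of *DEPTOR* (limma adjusted p = 0.0626) and *EIF4EBP1* (limma adjusted p = 0.0622) were lost, and with both other scalings *MLST8* and *EIF4E* were called higher. *MLST8* was also called higher without shPAX2 replicate 1. The call of *EIF4EBP1* was also lost without any 1 library other than shPAX2 replicate 1. *MTOR*, *RPTOR*, *RHEB* and the S6 kinases did not pass. Of 5 AKT substrates, *FOXO4* (-0.25, limma adjusted p = 0.0348) and *GSK3B* (-0.22) were lower, neither of them with the other 2 scalings. The call of *FOXO4* was also lost without any 1 library other than shEV replicate 1 (limma adjusted p = 0.0523 without shPAX2 replicate 1). Of the *IGF2* mRNA-binding proteins, *IGF2BP2* gave -0.24 (limma adjusted p = 0.0228), a call lost with both other scalings (limma adjusted p = 0.176 and 0.141), and *IGF2BP3* gave 0.20 (limma adjusted p = 0.0441), a call kept with both. Each of these calls was lost in 4 of the 6 fits that left out 1 library.

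Of the 11 genes known to respond to FOXO factors, 8 were tested. Of these, 3 (37.5%) passed on adjusted p, against 42.8% of all genes. *CITED2*, a transcriptional coregulator, rose from 22.5, 24.6 and 30.7 TPM in shEV to 174, 198 and 203 TPM in shPAX2. The lowest shPAX2 library was far above the highest shEV library, with means of 26.0 ± 4.25 and 191 ± 15.5 TPM (SD, n = 3). Its log2 fold change of 2.87 (SE 0.12, limma adjusted p = 1.87e-06) was well above the chromosome 6 median. *SOD2*, a mitochondrial antioxidant enzyme, was higher at 0.46. *CCNG2*, an inhibitory cyclin, was lower at -0.96 (-1.15 without shPAX2 replicate 1, past both criteria). *CDKN1B*, *GADD45A*, *PDK4*, *BCL6* and *SESN1* did not pass. The list therefore moved in no single direction.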

How the data were processed

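RNA-Seq of 6 AN3CA libraries (3 shEV and 3 shPAX2, grouped by their labels) was analysed from a table of 17471 genes that the authors deposited as TPM, summing to the same total in each library. The submitters' processing notes name bcl2fastq, STAR, Subread, featureCounts, edgeR and hg19, with no version or role, and how reads became TPM or strand was used is not given in the sources used here. The study's methods name a stranded total RNA kit for its Ishikawa cell libraries.

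A minimum of 0.5 TPM, reached in 3 or more libraries, left 13163 genes, which were tested on log2(TPM + 0.5) with limma 3.58.1 (lmFit, then eBayes with trend and robust, R 4.3.3), with p-values two-sided and Benjamini-Hochberg adjusted over all genes tested. A call needed an adjusted p below 0.05 and, where stated, a log2 fold change of at least 1 in size. The script was tested on simulated data. Whole reads were recovered up to 1 factor per gene for 100.0% of genes (largest deviation 7.15e-14, tolerance 1e-10), and they gave the read totals, the exact intervals, which cover counting error only, and an alternative test (voom). Depth was 10730909 to 29405787 recovered reads per library. Gene positions are from GENCODE v44lift37 (GRCh37), found for 95.1% of listed genes, and promoter windows from RefSeq (GRCh38.p14). Alternatives were the pseudocount, filter, scaling, replicate block, eBayes options, voom and leaving out each library. No batch was labelled. Over all tested genes, replicate numbers did not pair the libraries.

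The members and lists were chosen with earlier results of these data known. The genes named were all members, *PAX2*, list genes that passed both criteria, the tested gene farthest from 0 in each role, and the 3 genes nearest to *IRS1* in profile. Other genes in the text were named after their values were seen. No protein sequence was used here, and some list genes are counted but not reported here.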

Additional observations from a re-analysis of the deposited data

How the results depend on the processing

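*PAX2*, *IRS1*, *IGFBP6*, *IGFBP2* and *GRB10* kept their direction and their side of the threshold in every alternative in which they were tested. *IRS1* ranged from -2.93 to -1.67, *IGFBP6* from -1.83 to -1.59 and *IGFBP2* from -0.89 to -0.68. A filter at 5 TPM left 1 member past both criteria because *IRS1* was no longer tested. With no filter 5 members passed on adjusted p, as *IGF1R* and *IGFBP5* entered. Log2 fold changes turned positive for *INSR* with median-of-ratios scaling (0.02) and quantile normalization (0.12), and for *H19* with these (0.09 and 0.18), with voom (0.01) and without shPAX2 replicate 3 (0.06). The cause was not tested. With 1 library left out, *H19* ranged from -0.07 to 0.06. The pathway count by adjusted p was 15 with quantile normalization. Without 1 library it ranged from 14 (without shPAX2 replicate 2 or 3) to 21, and it was 15 without shEV replicate 2. *IGFBP3* ranged from 1.62 to 2.93 with 1 library left out, the latter past the threshold without shPAX2 replicate 1, and was not tested without shEV replicate 1, shPAX2 replicate 2 or shPAX2 replicate 3. Log2 member ratios moved by less than their SD. Of all genes called by both criteria, 68.6% were lower, against 60.0% with median-of-ratios scaling and 54.7% with quantile normalization; 303 were called at 5 TPM, against 598.

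Libraries of the same number deviated together by correlations of -0.0523, 0.0815 and 0.0014, so over all tested genes they showed no pairing. For *IGFBP6* and *IGFBP2*, replicate 1 was the highest library in both groups. Taking the replicate number as a block lowered their SE from 0.14 to 0.06 and from 0.09 to 0.06. The SE of *IRS1*, *INSR* and *IGFBP3* rose. With the replicate number as a block, 588 genes passed both criteria (limma), the limma adjusted p was 0.000422 for *IRS1*, 1.28e-05 for *IGFBP6*, 0.000291 for *IGFBP2* and 0.00207 for *PAX2*, 2 members still passed both criteria and 3 passed on p, and 18 pathway genes passed on p.

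Depth limits *IGF1R*, *IGF2*, *IGFBP4* and *IGFBP5*, each on under 100 reads in all.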

Other observations

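Some pathway genes that did not reach 0.5 TPM in at least 3 libraries still carried values, and were picked here after they were seen. *PIK3IP1*, a membrane protein that restrains PI3K, was at 0.753, 0.412 and 0.627 TPM in shEV and at 0.0793, 0.180 and 0.124 TPM in shPAX2, on 10, 9 and 14 reads against 3, 6 and 3. Its groups did not overlap, and the unfiltered fit gave a log2 fold change of -0.80 (SE 0.13, limma adjusted p = 0.00578). *STC2*, which encodes an inhibitor of the protease that cleaves binding proteins, was read 1, 17 and 122 times in the shEV libraries and 42, 17 and 8 times in the shPAX2 libraries. Its 2.53 TPM came from shEV replicate 3 alone, and with a spread this wide the groups could not be told apart (limma adjusted p = 0.623 with no filter).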
